A study of Mus musculus with 10 samples.

Results

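The genes described here are the machinery that moves calcium in a T cell and reads it out through calmodulin: channels of the plasma membrane, receptors and pumps of the calcium stores, calmodulin-dependent kinases, calcium-dependent protein kinase C, calpains and the CREB branch. They were taken from a list of 33 named genes. Each was represented by 1 probe set, the one with the highest mean over the 10 arrays among probe sets annotated to that symbol alone. For 30 of the 33 a probe set was found, of 18193 genes in all, and all 30 passed the filter that removed the dimmest 30% of genes (mean below 4.59 log2 units) and left 12735 for testing. Itpr1, Calm2 and Calm3 were not analysed here. Calmodulin itself is therefore represented only through its kinases.

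The samples were leukemic marrow cells from mice with T-ALL, an acute leukemia of immature T cells, driven here by ICN1, the activated intracellular part of NOTCH1. All the leukemias, in both groups, carried the ROSCreERT2 transgene, a Cre recombinase switched on by tamoxifen, and 2 copies of a floxed allele of CnB1, the regulatory subunit of calcineurin (symbol Ppp3r1). Leukemic secondary recipient mice received tamoxifen, which deletes CnB1 and inactivates calcineurin (TAM, 5 arrays), or corn oil alone, which leaves both in place (OIL, 5 arrays). OIL animals received no tamoxifen, so the drug itself and the loss of CnB1 cannot be told apart, and the sources used here give no age. Leukemic cells made up more than 50% of the marrow and were sorted by GFP or a similar marker. Each group held 1 array for each of the labels F3, F3.1, F3.2, 204 and 206, and values are listed in that label order below. The meaning of the labels is not stated, nor that each array is a separate mouse, and the p-values reflect just the spread among these arrays, which may be technical.

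In T cells a signal at the antigen receptor makes phospholipase C release inositol trisphosphate (IP3), which opens IP3 receptors in the endoplasmic reticulum. Emptied stores are sensed by STIM proteins, which open ORAI channels in the plasma membrane, while pumps return calcium to the stores or to the outside and a uniporter takes it into mitochondria. Calcium then binds calmodulin, which activates calcineurin and the calmodulin-dependent kinases, so the genes described here lie mostly upstream of, or beside, the phosphatase that TAM inactivates.

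Expression values were log2 units, and 1 unit is a 2-fold difference. The dimmer of both Ppp3r1 probe sets read 3.26 ± 0.21 in TAM and 5.32 ± 0.58 in OIL (SD, n = 5 each), a difference of -2.06 (two-sided exact permutation p = 0.00794, the minimum for 5 against 5 arrays). All 5 TAM arrays (3.02 to 3.60) and 1 of the 5 OIL arrays (4.49 to 6.04) lay below the dim limit of 4.59, so the size of this difference rests on values under the limit. The brighter probe set, which the rule selected, read 9.67 ± 0.043 in TAM and 9.80 ± 0.086 in OIL, a difference of -0.12 (exact p = 0.0238). The sources used here do not place either probe set relative to the deleted part. Of 9 T lineage markers, 8 were on the array and all 8 were past the dim limit, with a summed linear level of 23985 to 27971 in TAM and 23171 to 25579 in OIL. Of 7 B cell markers, 6 were on the array and 2 passed the limit (166 to 246 in TAM, 162 to 213 in OIL), and Cd79a, Cd79b, Ms4a1 and Blnk were below it. Of 10 myeloid markers, 9 were on the array and 7 passed (386 to 2164 in TAM, 277 to 1192 in OIL), with Itgam and Mpo below it. Of 7 erythroid markers 3 of the 5 on the array passed (143 to 164 in TAM, 143 to 175 in OIL), and all 4 megakaryocyte markers did (189 to 206 in TAM, 196 to 220 in OIL). None of 3 NK markers passed (23 to 35 in TAM, 30 to 34 in OIL), and 2 of 5 stromal or endothelial markers did (157 to 233 in TAM, 169 to 235 in OIL). No marker was called by limma between the groups, and 4 had an unadjusted p under 0.05. The closest arrays of all were OIL F3.1 and OIL F3.2 (Pearson r = 0.9975 over genes, against 0.9952 for the next pair and 0.9773 for the least alike).

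None of the 30 calcium genes passed the threshold in the comparison of TAM with OIL. By limma at an adjusted p under 0.05, over all 12735 genes, 38 genes were higher in TAM (0.298%) and 22 were lower (0.173%). Among the 30, 16 lay higher and 14 lower in TAM, beside 5218 and 7517 of all genes. The median difference was 0.008 log2 units, beside -0.031 over all genes. The roles hold 2 to 8 genes each, and their directions below are given as values only. Differences ran from -0.54 for Atp2a3 to 0.40 for Prkca. At an unadjusted p under 0.05 the 30 held 5 genes (16.7%, against 13.0% of all genes): Stim2 and Camk4 on the higher side, and Atp2a3, Cast and Capn1 on the lower. In none of the 30, at the probe set used, did the 5 TAM arrays lie wholly apart from the 5 OIL arrays. That was so for 3.27% of all genes. All 5 labels differed in the same direction for 6 of the 30 (20%, against 21.9% of all genes): Stim2, Kcna3 and Camk4 were higher in TAM in each, and Atp2a3, Capn1 and Cast were lower. With the label as a block, which compares TAM with OIL within each label, 1 of the 30 (3.33%, against 3.38% of all genes) was called, and that was Capn1, on the lower side. None of the 30 was called without a block when any 1 array was left out. At an unadjusted p under 0.05 the blocked fit held 7 of the 30 (23.3%, against 22.4%). In these bulk samples fewer cells that express a gene and less of its RNA per cell cannot be told apart.

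**Figure D1:**
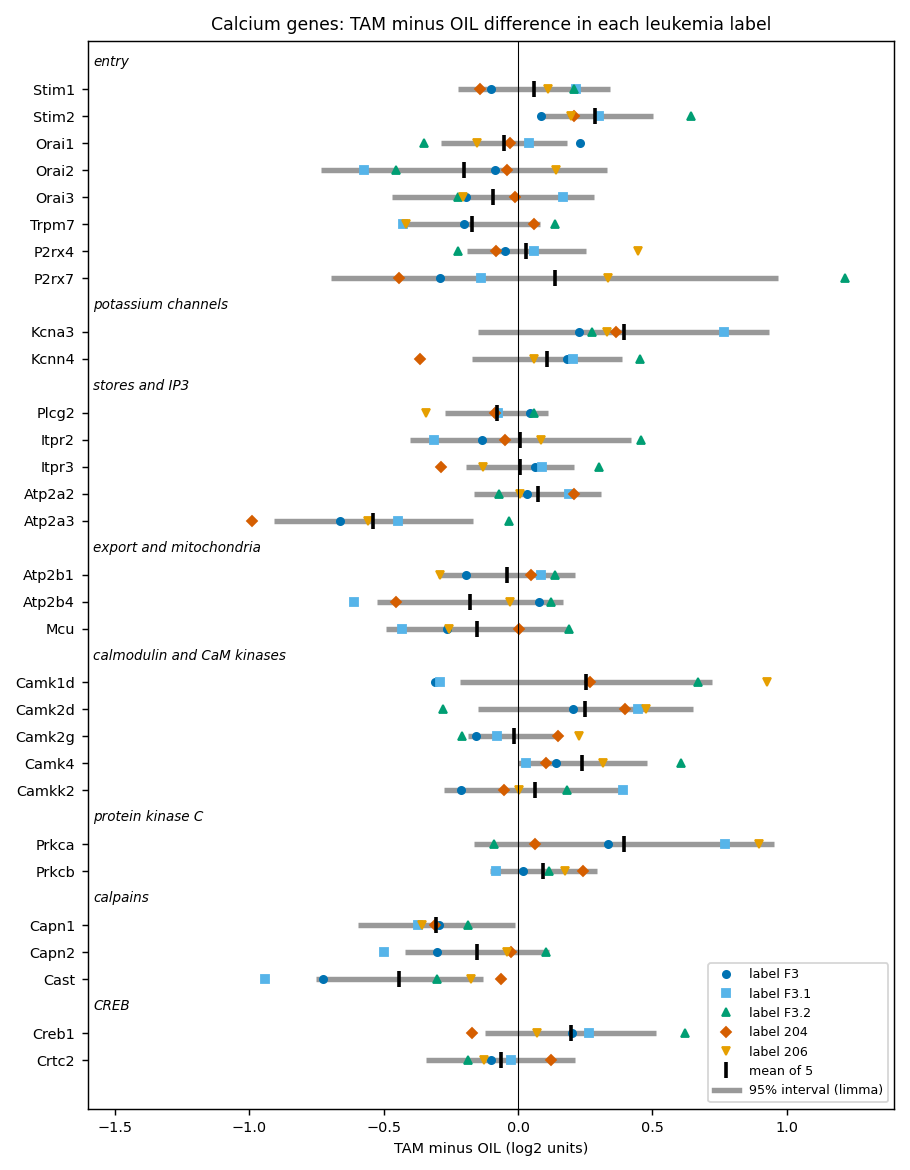
TAM minus OIL (log2 units, x axis) for the 30 calcium genes, grouped by role: each coloured point is 1 label's TAM array minus its OIL array, the black tick is the mean of 5 and the grey bar the 95% interval of the limma fit without a block. Intervals of 5 genes (Stim2, Atp2a3, Camk4, Capn1 and Cast) leave out 0 before adjustment for the 12735 genes tested, and no gene has an adjusted p under 0.05 in this fit.

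The 95% intervals give the sizes of difference that these arrays leave possible. For 18 of the 30 the interval lay within 0.5 log2 units of no difference (1.41-fold), and its half-width ran from 0.17 for Camk2g to 0.83 for P2rx7, with a median of 0.29. With the label as a block, 23 of the 30 lay within that bound. The remaining intervals reached past it.

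Promoter windows are shown for Capn1, called between TAM and OIL with the label as a block, for Orai2, called between the F3 labels and 204 and 206, and for Atp2a3, whose difference between TAM and OIL was the widest. Each runs from 250 bases before to 50 bases after an annotated start and is printed 5′ to 3′ on the gene's strand, from RefSeq on GRCm38.p6. Capitals mark GGAAA, the core of sites bound by NFAT, the transcription factors that calcineurin activates.
Atp2a3, chr11:72960919-72961218, plus strand: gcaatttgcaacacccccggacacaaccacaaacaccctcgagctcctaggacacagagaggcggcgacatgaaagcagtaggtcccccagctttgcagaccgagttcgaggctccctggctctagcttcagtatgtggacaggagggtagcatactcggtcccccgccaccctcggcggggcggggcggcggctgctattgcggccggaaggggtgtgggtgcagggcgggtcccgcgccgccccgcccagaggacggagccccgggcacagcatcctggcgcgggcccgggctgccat
Capn1, chr19:6015198-6015497, minus strand: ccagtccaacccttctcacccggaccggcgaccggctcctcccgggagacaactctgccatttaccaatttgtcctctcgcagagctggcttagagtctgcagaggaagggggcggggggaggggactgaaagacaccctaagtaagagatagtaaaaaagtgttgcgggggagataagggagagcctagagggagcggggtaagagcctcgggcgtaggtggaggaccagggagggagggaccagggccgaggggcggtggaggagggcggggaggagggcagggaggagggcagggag
Capn1, chr19:6015776-6016075, minus strand: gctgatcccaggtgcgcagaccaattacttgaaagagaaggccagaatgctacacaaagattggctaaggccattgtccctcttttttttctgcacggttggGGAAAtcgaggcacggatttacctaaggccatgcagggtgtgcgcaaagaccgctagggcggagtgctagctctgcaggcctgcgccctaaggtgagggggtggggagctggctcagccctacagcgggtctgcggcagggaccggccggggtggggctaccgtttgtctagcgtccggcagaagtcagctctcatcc
Orai2, chr5:136170607-136170906, minus strand: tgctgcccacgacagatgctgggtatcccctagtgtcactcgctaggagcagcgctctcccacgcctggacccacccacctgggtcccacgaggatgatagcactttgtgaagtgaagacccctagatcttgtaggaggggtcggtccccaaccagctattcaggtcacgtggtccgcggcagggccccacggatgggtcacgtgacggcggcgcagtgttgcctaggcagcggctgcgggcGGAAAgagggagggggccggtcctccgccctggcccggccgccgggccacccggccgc
GGAAA, or TTTCC on the other strand, was absent from the Atp2a3 window and 1 of the Capn1 windows and occurred once in the other Capn1 window and in that of Orai2. Across the 26 of 30 genes matched to a window, 17 of 33 windows held it (51.5%), against 20151 of 32851 windows of 300 bases for all genes (61.3%). The letters TGACGTCA, a full site for CREB proteins and the same on both strands, were in 0 of the 33 windows and in 588 of all windows (1.8%). A match describes letters in this window and is not a bound site.

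Of the genes that fill and empty the stores, Atp2a3 showed the widest difference. It encodes SERCA3, a pump that returns calcium to the endoplasmic reticulum. Atp2a3 read 9.32, 9.45, 9.72, 8.75 and 9.01 on the TAM arrays, against 9.98, 9.89, 9.75, 9.74 and 9.57 on the OIL arrays. The TAM array was lower in every label, by as little as 0.032 in F3.2 and as much as 0.99 in 204, and the groups overlapped only through TAM F3.2. Its means were 9.25 ± 0.38 in TAM and 9.79 ± 0.16 in OIL (SD, n = 5 each), a difference of -0.54 (SE 0.17, 1.45-fold lower, limma adjusted p = 0.213). With the label as a block the adjusted p was 0.0649, and with the label as a random term 0.0389. In the blocked fit it was 0.0233 (difference -0.66) without F3.2, the label with the smallest difference, and 0.131 to 0.178 without any of the other 4. Its other probe set also lay lower in TAM, by 0.37 log2 units, in all 5 labels.

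Atp2a2, the SERCA2 pump found in most cell types, read 10.95 to 11.42 in TAM and 10.83 to 11.23 in OIL, so the groups covered nearly the same range. Its difference was 0.074 (95% interval -0.16 to 0.31), and all 6 of its probe sets lay on the higher side. Itpr2 and Itpr3 encode IP3 receptors, the release channels of the stores. Itpr2 ranged over 9.56 to 10.41 in TAM and 9.76 to 10.46 in OIL, with a mean difference of 0.009, and its 6 probe sets split 3 higher and 3 lower. Itpr3 ranged over 7.93 to 8.18 in TAM and 7.87 to 8.22 in OIL, with a difference of 0.008. Plcg2, a phospholipase C that makes IP3 and is best known from B cells and myeloid cells, read 5.81 to 6.16 in TAM and 5.91 to 6.23 in OIL, a difference of -0.080 (95% interval -0.27 to 0.11). Of the B cell markers, Cd79a, Cd79b, Ms4a1 and Blnk were below the dim limit, while Cd22 (6.53 in TAM and 5.84 in OIL on average) and Pax5 (5.12 in TAM and 5.27 in OIL) passed it. Of the 9 myeloid markers on the array 7 passed it. The part of these cells in the Plcg2 values was not tested.

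Capn1 and Capn2, the large subunits of the classical calpains (proteases that need calcium), and Cast, their inhibitor, lay lower in TAM, with a median of -0.30 log2 units over the 3 genes. A wider list of 73 calcium genes outside the 30 held 5 other calpain genes, which lay on both sides: Capn5 differed by 0.70 (limma adjusted p = 0.345) and Capn15 by 0.12, against -0.10 for Capn7, -0.052 for Capn10 and -0.29 for Capns1, the small subunit shared by the classical calpains (adjusted p = 0.210). They are named here beyond the naming rule, after their values were seen. Capn1 encodes the large subunit of the calpain that responds to the lower calcium concentrations. Capn1 read 7.22, 6.80, 7.20, 7.41 and 7.27 on the TAM arrays, against 7.52, 7.17, 7.38, 7.72 and 7.63 on the OIL arrays. Every label was lower in TAM, by 0.19 to 0.37 log2 units, while the labels sat at different levels and the groups overlapped. The means were 7.18 ± 0.23 in TAM and 7.49 ± 0.22 in OIL (SD, n = 5 each), a difference of -0.30 (SE 0.13, limma adjusted p = 0.363). In the fit with the label as a block Capn1 fell by 0.30, with SE 0.058 and limma adjusted p = 0.0397. That call held without label F3.2 (adjusted p = 0.0364) and was lost without 204 (0.102), 206 (0.101), F3.1 (0.143) or F3 (0.124), and with the mean of both probe sets (difference -0.20, adjusted p = 0.0926). A second Capn1 probe set had a difference of -0.086.

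Cast encodes calpastatin, the inhibitor of both calpains. Cast read 7.92, 7.63, 8.13, 8.09 and 7.83 on the TAM arrays, against 8.64, 8.57, 8.43, 8.15 and 8.01 on the OIL arrays. The largest gaps were in F3.1 and F3, 0.94 and 0.72 log2 units lower in TAM, and the smallest was in 204, 0.063 lower; the groups overlapped through OIL 206 alone. Its means were 7.92 ± 0.20 in TAM and 8.36 ± 0.27 in OIL (SD, n = 5 each), a difference of -0.44 (SE 0.14, 1.36-fold lower, limma adjusted p = 0.224). All 3 Cast probe sets lay lower in TAM, the other pair by 0.31 and 0.068. Capn2 read 7.57 to 8.22 in TAM and 7.94 to 8.25 in OIL, a difference of -0.15 (95% interval -0.42 to 0.11), and 4 of 5 labels were lower in TAM.

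Of the 8 entry genes, 4 lay higher and 4 lower in TAM, with a median of -0.011. Stim2, the store sensor that responds to small falls in store calcium, had the lowest p of these. Stim2 read 8.56, 8.48, 8.66, 8.59 and 8.38 on the TAM arrays, against 8.48, 8.18, 8.02, 8.38 and 8.18 on the OIL arrays. All 5 labels were higher in TAM, from 0.087 in F3 to 0.64 in F3.2, and the groups overlapped because TAM 206 lay below OIL F3 and OIL 204. Its means were 8.54 ± 0.11 in TAM and 8.25 ± 0.18 in OIL (SD, n = 5 each), a difference of 0.29 (SE 0.096, limma adjusted p = 0.240). The second Stim2 probe set lay 0.087 higher in TAM. Stim1, the main store sensor of T cells, read 8.12 to 8.39 in TAM and 7.91 to 8.50 in OIL, a difference of 0.058 with 3 of 5 labels higher in TAM.

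The ORAI genes encode the pores that STIM proteins open. Orai1, the main pore in T cells, read 6.33 to 6.74 in TAM and 6.28 to 6.71 in OIL, a difference of -0.053 (95% interval -0.29 to 0.18). Orai2 read 6.66, 6.26, 6.56, 6.07 and 5.94 on the TAM arrays, against 6.75, 6.83, 7.01, 6.11 and 5.80 on the OIL arrays. The OIL F3.1 and OIL F3.2 arrays were the highest and lay 0.57 and 0.46 above their TAM partners, while the labels 204 and 206 were low in both groups. Orai2 differed by -0.20 between the groups (SE 0.24, limma adjusted p = 0.779), and both of its probe sets lay lower in TAM. Orai3 ranged over 6.97 to 7.72 in TAM and 7.09 to 7.73 in OIL, a difference of -0.093.

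Trpm7, a cation channel joined to a kinase, read 9.51 to 10.10 in TAM and 9.71 to 9.96 in OIL, a difference of -0.17 (95% interval -0.42 to 0.083), and its 4 probe sets split 1 higher and 3 lower. P2rx4 and P2rx7 are channels opened by extracellular ATP. P2rx4 ranged over 6.13 to 6.31 in TAM and 5.83 to 6.39 in OIL, a difference of 0.031. P2rx7 read 7.02, 6.02, 7.27, 5.56 and 6.05 on the TAM arrays, against 7.32, 6.16, 6.06, 6.002 and 5.72 on the OIL arrays. Values above 7 were on TAM F3.2, TAM F3 and OIL F3, and the other 7 arrays lay between 5.56 and 6.16. P2rx7 had the widest interval of the 30, -0.70 to 0.97 around a difference of 0.14.

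The same 3 arrays had the highest summed myeloid marker levels. These sums were 2164, 556, 1099, 504 and 386 on the TAM arrays, against 1192, 714, 390, 277 and 436 on the OIL arrays. Most of the sum on the 3 arrays came from S100a8 and S100a9. On TAM F3, TAM F3.2 and OIL F3, S100a8 read 10.08, 9.11 and 9.11, and S100a9 read 9.52, 8.21 and 8.47. These genes and Lyz2 were highest there, while Csf1r, Cd68, Elane, Csf3r, Itgam and Mpo were not highest on all 3. The same 3 arrays also had the highest values of Cd8a, the CD8 coreceptor chain of T cells. It read 11.13 on TAM F3, 11.25 on TAM F3.2 and 11.23 on OIL F3, and 7.79 to 10.40 on the other arrays. The part of other cells or of T cell stage in the P2rx7 values was not tested.

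Potassium channels hold the membrane voltage that draws calcium in. Kcna3, a voltage-gated channel, read 6.28, 5.76, 5.26, 6.02 and 6.05 on the TAM arrays, against 6.05, 4.99, 4.99, 5.66 and 5.72 on the OIL arrays. Its TAM array was higher in every label, by 0.23 in F3 to 0.77 in F3.1, but the labels F3.1 and F3.2 were the lowest in both groups, and the groups overlapped. The difference was 0.39 (SE 0.24, limma adjusted p = 0.550). With the label as a block the SE was 0.088 and the limma adjusted p was 0.0601, so it was not called there either. Kcnn4, a potassium channel opened by calcium through calmodulin, read 10.51 to 11.29 in TAM and 10.74 to 10.92 in OIL, a difference of 0.11 with 4 of 5 labels higher in TAM.

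All 3 genes of calcium export and mitochondrial uptake lay slightly lower in TAM, and none had an unadjusted p under 0.05. Atp2b1 and Atp2b4 encode pumps of the plasma membrane, and Mcu encodes the pore of the mitochondrial uniporter. Atp2b1 ranged over 8.54 to 8.75 in TAM and 8.41 to 8.95 in OIL, a difference of -0.042. Atp2b4 ranged over 4.69 to 5.14 in TAM and 4.63 to 5.54 in OIL, a difference of -0.18. Mcu ranged over 8.39 to 9.03 in TAM and 8.65 to 9.19 in OIL, a difference of -0.15, and its lowest arrays were TAM F3.1 and TAM F3.

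Of the 5 calmodulin-dependent kinase genes, 4 lay higher in TAM, with a median of 0.24. Camk4, a nuclear kinase of T cells that phosphorylates CREB, read 10.43, 10.11, 10.59, 10.32 and 10.22 on the TAM arrays, against 10.29, 10.08, 9.99, 10.21 and 9.90 on the OIL arrays. All 5 labels were higher in TAM, from 0.028 in F3.1 to 0.61 in F3.2, and TAM F3.1 and TAM 206 lay within the OIL range. Its means were 10.33 ± 0.19 in TAM and 10.09 ± 0.16 in OIL (SD, n = 5 each), a difference of 0.24 (SE 0.11, limma adjusted p = 0.383). Of its 5 probe sets, 4 lay higher in TAM and 1 lower, over -0.027 to 0.42.

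Camk2d and Camk2g encode subunits of calmodulin-dependent kinase II. Camk2d read 6.51, 6.67, 6.13, 7.12 and 6.49 on the TAM arrays, against 6.31, 6.23, 6.41, 6.73 and 6.01 on the OIL arrays. Label F3.2 was lower in TAM by 0.28 and the other 4 labels were higher by 0.20 to 0.48. The difference was 0.25 (SE 0.18, limma adjusted p = 0.615), and all 7 of its probe sets lay higher in TAM, by 0.19 to 0.48. Only 3 of the 7 were above the dim limit, and their differences ran from 0.205 to 0.356. With the label as a block the limma adjusted p was 0.258. Among the blocked fits that left out 1 label, it passed only without F3.2, the label that went the other way (difference 0.38, adjusted p = 0.0423). Camk2g ranged over 8.93 to 9.14 in TAM and 8.89 to 9.22 in OIL, a difference of -0.014 with the narrowest interval of the 30 (-0.19 to 0.16).

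Camk1d, a calmodulin-dependent kinase I, read 6.62 to 7.42 in TAM and 6.49 to 7.48 in OIL. TAM exceeded OIL by 0.93 in label 206 and 0.67 in F3.2 and lay below it in F3 and F3.1, so the mean difference of 0.25 had an interval of -0.21 to 0.72. Camkk2, the kinase that phosphorylates the type I and type IV kinases, ranged over 8.14 to 8.51 in TAM and 7.82 to 8.52 in OIL, a difference of 0.062.

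Prkca and Prkcb encode protein kinase C isoforms that need calcium and diacylglycerol. Prkca read 8.83, 9.35, 8.66, 8.04 and 8.64 on the TAM arrays, against 8.50, 8.58, 8.75, 7.98 and 7.75 on the OIL arrays. TAM exceeded OIL by 0.90 in label 206 and 0.77 in F3.1, and the groups overlapped widely. Prkca differed by 0.40 (SE 0.25, limma adjusted p = 0.566), with 3 of 3 probe sets higher in TAM. Prkcb ranged over 11.10 to 11.48 in TAM and 11.18 to 11.46 in OIL, a difference of 0.094, and all 3 of its probe sets lay on the higher side.

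Creb1 encodes the transcription factor phosphorylated by calmodulin-dependent kinase IV, and Crtc2 a coactivator of it that calcineurin dephosphorylates. Creb1 ranged over 9.93 to 10.23 in TAM and 9.31 to 10.11 in OIL, and OIL F3.2 was its lowest array. Its difference was 0.20 (95% interval -0.12 to 0.51), with 4 of 5 labels and 6 of 6 probe sets higher in TAM. Crtc2 ranged over 6.30 to 6.76 in TAM and 6.28 to 6.86 in OIL, a difference of -0.064 with 1 of 5 labels higher in TAM.

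**Figure D2:**
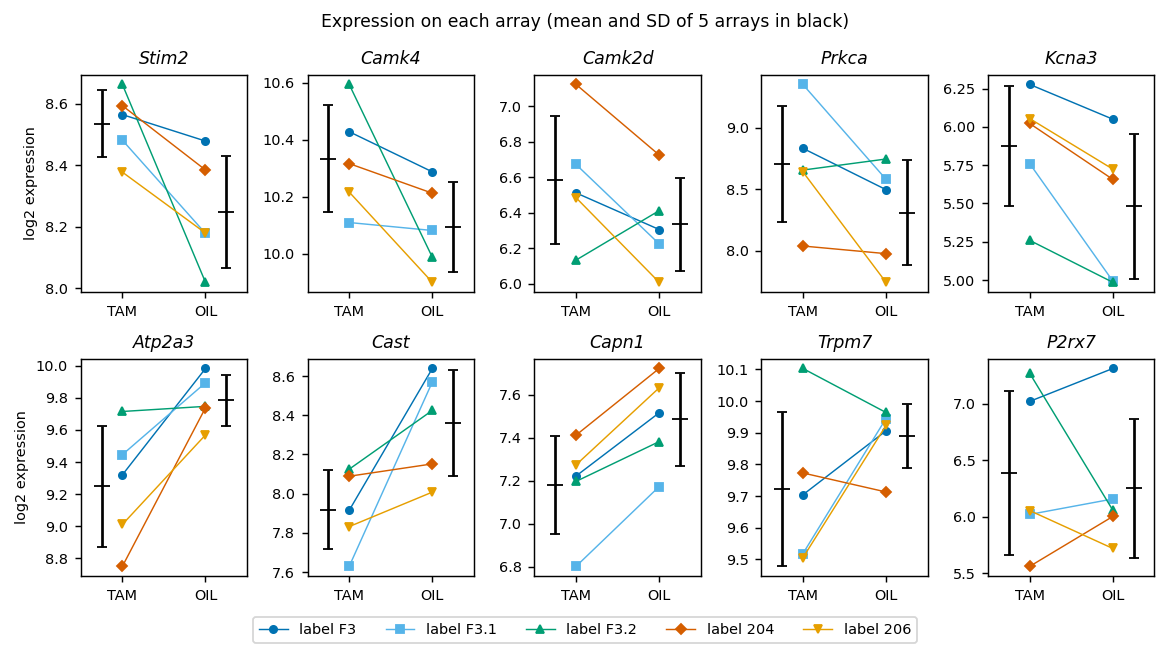
Expression (log2 units, y axis) of 10 calcium genes on each array, TAM left and OIL right, with lines joining arrays of 1 label and black bars for the mean and SD of 5 arrays. Lines of Stim2, Camk4 and Kcna3 are higher at the TAM end in every label and those of Atp2a3, Cast and Capn1 lower, while the groups overlap in each panel.

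The 30 genes had 86 probe sets, of which 74 were above the dim limit, and 6 genes had only 1. Among the 24 genes with several, the probe sets all lay higher in TAM for 9 and all lower for 9, and for 6 they disagreed. The disagreeing genes were Stim1, Trpm7, P2rx4, Itpr2, Camk4 and Camkk2. Itpr2 spanned the most, from -0.30 to 0.28, followed by Trpm7, from -0.23 to 0.32.

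**Figure D3:**
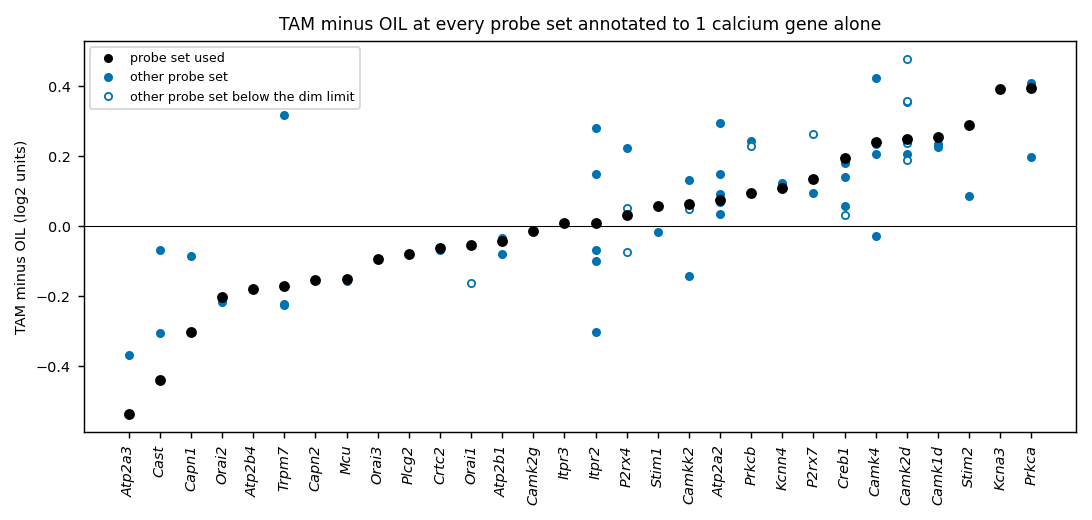
TAM minus OIL (log2 units, y axis) at each of the 86 probe sets of the 30 calcium genes (x axis, ordered by the probe set used), with the probe set used in black, the others in blue and those below the dim limit open. Both Atp2a3 points and all 3 of Cast lie below 0, all 7 of Camk2d lie above it, and Itpr2 and Trpm7 lie on both sides.

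The label, with 4 degrees of freedom, took a median of 59.6% of the variance of the 30 genes, and TAM against OIL, with 1, took 9.93%. Over all genes the shares were 59.4% and 9.82%, close to those of the 30, and with unequal degrees of freedom the shares of label and treatment are not set against each other. In a limma F test across labels with the group as a term, 4 of the 30 passed (13.3%, against 10.6% of all genes). These were Kcna3 (adjusted p = 0.0168), Capn1 (0.0364), Orai3 (0.0390) and Orai2 (0.0435). Label means of Kcna3 were 6.16, 5.38, 5.12, 5.84 and 5.89 for F3, F3.1, F3.2, 204 and 206, low in F3.1 and F3.2 and high in F3. For Capn1 they were 7.37, 6.99, 7.29, 7.57 and 7.45, lowest in F3.1. The Orai3 means were 7.06, 7.18, 7.13, 7.72 and 7.51, and those of Orai2 were 6.70, 6.55, 6.79, 6.09 and 5.87, so the order of F3 labels and 204 and 206 was opposite in these 2 pore genes. Orai1, by contrast, had label means of 6.39, 6.72, 6.53, 6.52 and 6.40 and did not pass (adjusted p = 0.388).

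These calls depended on single labels. Without label 204 or label 206 Kcna3 alone of the 30 was called, without F3.1 it was joined by Orai3 and Orai2, and without F3 none was. Without F3.2 the call extended to 9 genes: P2rx7, Kcna3, Orai2, Orai3, Itpr2, Mcu, Camk2d, Capn1 and Crtc2. With the mean of all probe sets Kcna3, Orai3 and Orai2 passed, together with Atp2b1 and Creb1, and Capn1 did not (adjusted p = 0.0545).

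Averaging the TAM and OIL array of each label set the 3 F3 labels against 204 and 206. Whether F3, F3.1 and F3.2 are separate leukemias is not stated, so these 3 labels may not be independent. The SDs and p-values of every fit that sets F3 labels against 204 and 206 reflect just the spread among labels. Of the 30, 1 gene passed limma at an adjusted p under 0.05 (3.33%, against 2.60% of all genes), and 8 had an unadjusted p under 0.05 (26.7%, against 18.4%). Label means did not overlap for 10 genes (33.3%, against 37.9% of all genes). Of these, Orai2, P2rx7, Atp2a2, Atp2a3, Prkca and Crtc2 lay higher in the F3 labels, and Orai3, Mcu, Camkk2 and Capn1 lay lower. Orai2 was the gene that passed: its label means averaged 6.68 ± 0.12 over the F3 labels and 5.98 ± 0.16 over 204 and 206 (SD, n = 3 and 2), a difference of 0.70 (limma adjusted p = 0.0445). That call was lost when any single label was left out (adjusted p 0.0617 without F3, 0.0846 without F3.1, 0.145 without F3.2, 0.110 without 204 and 0.181 without 206) and with the mean of both probe sets (difference 0.46, adjusted p = 0.158).

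Further genes came close without passing. Prkca averaged 8.78 ± 0.17 over the F3 labels and 8.10 ± 0.13 over 204 and 206, a difference of 0.68 (limma adjusted p = 0.0601). Atp2a3 averaged 9.68 ± 0.042 over the F3 labels and 9.27 ± 0.033 over 204 and 206, a difference of 0.42 (adjusted p = 0.0620). Its other probe set went the other way (-0.15), and with the mean of both the difference was 0.13 (adjusted p = 0.668). Orai3 averaged 7.12 ± 0.057 over the F3 labels and 7.62 ± 0.15 over 204 and 206, a difference of -0.49 (adjusted p = 0.0710). Mcu averaged 8.64 ± 0.093 over the F3 labels and 9.05 ± 0.024 over 204 and 206, a difference of -0.41 (adjusted p = 0.0841). Camkk2 averaged 8.11 ± 0.14 over the F3 labels and 8.50 ± 0.010 over 204 and 206, a difference of -0.39 (adjusted p = 0.136), and passed without label F3 (difference -0.47, adjusted p = 0.0443). With the mean of its probe sets the difference was -0.17 (adjusted p = 0.347).

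**Figure D4:**
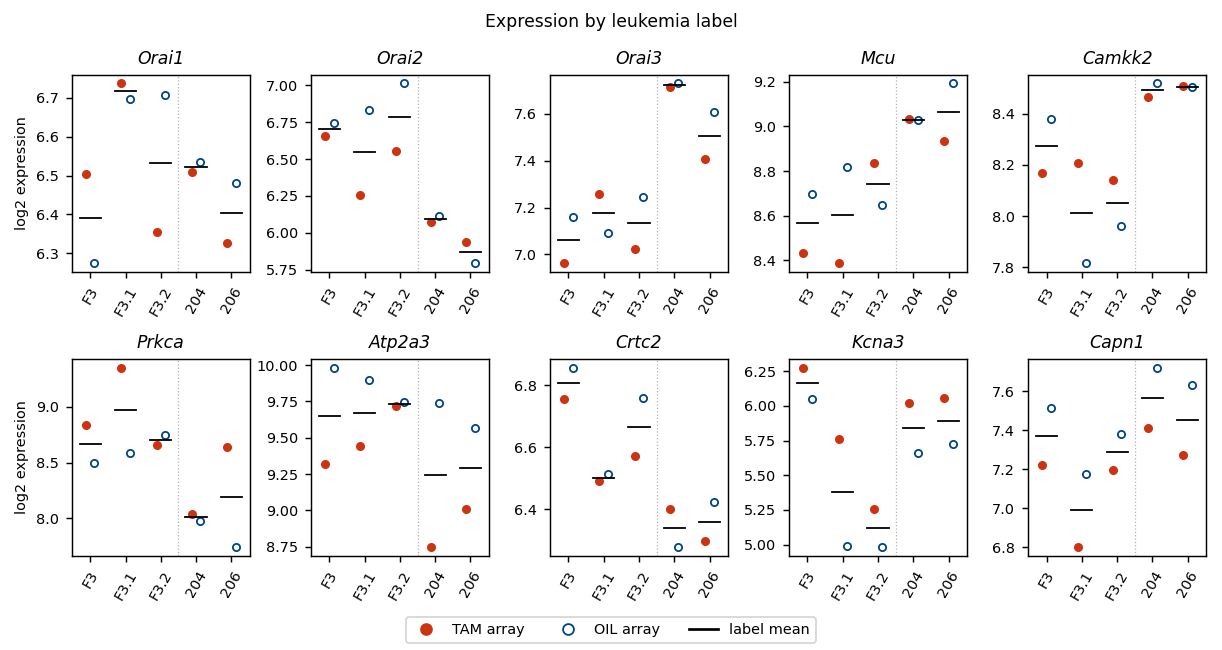
Expression (log2 units, y axis) of 10 calcium genes by label (x axis), with filled points for TAM arrays, open points for OIL arrays and a bar for the label mean. Orai2 sits higher and Orai3, Mcu and Camkk2 lower in the 3 F3 labels than in 204 and 206, whereas Orai1 overlaps and Kcna3 is low in F3.1 and F3.2 alone.

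Whether the TAM minus OIL difference itself differed between the F3 labels and 204 and 206 was tested in limma on the 5 differences. None of the 12735 genes passed (0%), while 4 of the 30 had an unadjusted p under 0.05 (13.3%, against 5.51% of all genes). Cast differed by -0.66 over the F3 labels and -0.12 over 204 and 206, a difference between label sets of -0.54 (limma adjusted p = 0.872). Kcnn4 differed by 0.28 over the F3 labels and -0.15 over 204 and 206, and its difference between label sets was 0.43 (adjusted p = 0.872). The remaining genes were Itpr3 (0.36) and Camk2g (-0.34).

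The OIL arrays most alike, F3.1 and F3.2, both lay on the same side of the other 3 OIL arrays for 53.3% of the 30. That was so for 41.75% of all genes, and whether the shares differ beyond chance was not tested. Both lay below the other 3 OIL arrays for 10 of the 30 (33.3%, against 19.2% of all genes): Stim1, Stim2, Kcna3, Kcnn4, Itpr2, Itpr3, Atp2b1, Camkk2, Capn1 and Creb1. Both lay above them for 6 (20%, against 22.6%): Orai1, Orai2, Trpm7, P2rx4, Atp2a2 and Prkca. With the pair averaged as 1 sample, none of the 30 was called between TAM and OIL, and 10 genes in all were called in place of 60.

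A wider list held other genes of calcium handling and related genes, some of which do not need calcium. It was chosen with earlier results of these data known. An excess over the share of all genes is therefore not independent support. The list named 95 genes, of which 88 were on the array and 73 were tested. Of these, 27 lay higher and 46 lower in TAM, beside 5218 and 7517 of all genes. Their median was -0.052, beside -0.031 over all genes. By limma 1 was called, on the lower side (0.173% of all genes were called lower). An unadjusted p under 0.05 was found for 13 (17.8%, against 13.0% of all genes). The called gene was Tpcn1, a calcium-permeable channel of endosomes and lysosomes. Tpcn1 read 8.09, 8.09, 8.11, 8.10 and 8.16 on the TAM arrays, against 8.80, 8.63, 8.58, 8.83 and 8.37 on the OIL arrays. The TAM arrays were all below the OIL arrays and lay within a far smaller range, and the difference was -0.53 (SE 0.088, limma adjusted p = 0.0384). Of the 10 settings that left out 1 array, the call held only without OIL 206, and the adjusted p ran from 0.0152 to 0.118. It was also lost with the mean of its probe sets (difference -0.20, adjusted p = 0.243), with arrays centred on their medians (-0.51, 0.0573) and with OIL F3.1 and OIL F3.2 averaged (-0.54, 0.0932).

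With the label as a block 4 of the 73 fell and 1 rose (6.85%, against 3.38% of all genes). Prkch, a protein kinase C that does not need calcium, fell by 0.64 (limma adjusted p = 0.0249, and 0.0575 in the unblocked fit). Nucb1, a calcium-binding protein of the Golgi, fell by 0.58 (adjusted p = 0.0385 with the block), and Slc8b1, the sodium and calcium exchanger of mitochondria, fell by 0.45 (0.0318). Rcn1, a calcium-binding protein of the endoplasmic reticulum, rose by 0.68 (0.0293), and Tpcn1 fell as above (0.0255). Rcn1 was lost when any 1 label was left out (adjusted p 0.0584 to 0.0754), as was Nucb1 (0.0552 to 0.120). Rcn1 was also not called with the label as a random term (adjusted p = 0.185) or without a block (0.584), and its difference was 0.36 with the mean of its probe sets and, without a block, 0.41 when OIL 204 was left out and 0.47 when OIL 206 was. The calls of Prkch and Slc8b1 held only without F3.2, and that of Tpcn1 only without F3.2 or 206.

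Across labels 9 of the 73 passed (12.3%, against 10.6% of all genes), and 7 passed between the F3 labels and 204 and 206 (9.59%, against 2.60%). Higher in the F3 labels were S100a10, a partner of annexin (9.18 ± 0.80 over the F3 labels and 5.70 ± 0.76 over 204 and 206), and Prkcz, an atypical protein kinase C (7.65 ± 0.34 over the F3 labels and 5.53 ± 0.19 over 204 and 206). Trpc1, a cation channel, averaged 6.03 ± 0.47 over the F3 labels and 4.07 ± 0.031 over 204 and 206. The Trpc1 mean over 204 and 206 lay below the dim limit of 4.59. The size of its difference and the small SD there therefore rest on values under the limit. Rcn1 averaged 6.53 ± 0.23 over the F3 labels and 5.09 ± 0.016 over 204 and 206. Prkci, the other atypical protein kinase C, was lower in the F3 labels (8.56 ± 0.021 over the F3 labels and 9.06 ± 0.052 over 204 and 206). The limma adjusted p was 0.0369 for S100a10, 0.0122 for Prkcz, 0.0286 for Trpc1, 0.0122 for Rcn1 and 0.0392 for Prkci. This fit called 331 genes in all, and 107 to 535 when 1 label was left out. How these 5 calls fare without 1 label, or with the mean of probe sets, is not given here.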

How the data were processed

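RNA of sorted leukemic cells was measured on 10 oligonucleotide expression arrays, from 200 ng of total RNA each, per the labels' protocols. The deposited values are in log2 units, and the submitters' processing notes name RMA, with no version given. RMA removes shifts common to all genes. The 45101 probe sets held values from 1.74 to 14.02, with array medians between 5.07 and 5.13. There is no read depth, and the number of arrays limits the precision.

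The platform annotation gave 1 symbol to 34958 probe sets, several to 932 (left unnamed) and none to 9211; 34754 matched RefSeq (GRCm38.p6). Of 18193 genes, the lowest 30% by mean (below 4.59) were left out, leaving 12735. The groups were compared in limma 3.58.1 (lmFit, eBayes) under R 4.3.3, with the data.table package (version 1.17.8), with Benjamini-Hochberg adjustment over all genes tested and 8 residual degrees of freedom. Label effects were tested with the group as a term, and the F3 labels against 204 and 206 on label means or label differences. Ppp3r1 was tested by exact permutation. The script was run on simulated data as a check of the code, and the outcome is not given here. The simulated arrays for the unblocked comparison held no label effects, so that check does not cover arrays with them.

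Labels F3, 204 and 206 are shared by both groups as written, and F3.1 and F3.2 once the last number of the sample name is dropped. Deviations from the group means correlated within a label, over genes, at 0.80 for F3, 0.58 for F3.1, 0.18 for F3.2, 0.76 for 204 and 0.75 for 206. All exceeded 0.1, so the label was taken as a pairing. A fit with it as a block (4 residual degrees of freedom) is given where it changes a call, and for some further genes. The pairing is weakest for F3.2.

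The genes, roles and lists (other calcium genes and cell type markers) were chosen with earlier results of these data known. All 33 listed genes, Ppp3r1, and at most 4 called other calcium genes per direction and fit, those with the largest difference, were to be named. The alternatives were the label as a fixed or random term, no or a 50% dim filter, the mean of all probe sets, median centring, further quantile normalization, eBayes with trend and robust, leaving out each array or label, and OIL F3.1 and OIL F3.2 averaged. Leaving out labels, and averaging probe sets, in the fit with the block was added after the data were seen.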

Additional observations from a re-analysis of the deposited data

Results flagged for a closer look

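Within each group of 5 arrays, the highest and the lowest value of each of the 30 calcium genes was set against its neighbour, by the gap divided by the whole range, with a limit of 0.71. This was done for 60 groups of arrays, and chance alone passes the limit in about 1 in 20 groups. Creb1 on TAM F3 read 10.23, above the next TAM array at 9.96, a gap of 0.89 of the range. Prkcb on TAM F3.1 read 11.10, below the next TAM array at 11.39, a gap of 0.75 of the range. P2rx7 on OIL F3 read 7.32, above the next OIL array at 6.16, a gap of 0.73 of the range. OIL F3 also had the highest myeloid marker sum of the OIL arrays, 1192, most of it from S100a8 and S100a9. The part of this in the P2rx7 value was not tested. Trpm7 on OIL 204 read 9.71, below the next OIL array at 9.91, a gap of 0.77 of the range.

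For 2 of the 30 calcium genes every F3 label moved one way between TAM and OIL and the labels 204 and 206 moved the other way. The share of all genes with this pattern is not given here, so whether 2 exceeds chance was not tested. The IP3 receptor gene Itpr3 differed by 0.15 over the F3 labels and -0.21 over 204 and 206, a difference between label sets of 0.36 (limma adjusted p = 0.872 over all genes, 0.0381 unadjusted). The kinase gene Camk2g differed by -0.15 over the F3 labels and 0.19 over 204 and 206, a difference between label sets of -0.34 (limma adjusted p = 0.872 over all genes, 0.0313 unadjusted). Neither passed the threshold, and both unadjusted p-values belong to genes picked by this same pattern of signs.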

How the results depend on the processing

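Between TAM and OIL 60 genes were called, none of them one of the 30 calcium genes. The call of 0 among the 30 held with no dim filter, the mean of all probe sets, median centring and quantile normalization. It also held with trend and robust moderation, each array left out, and OIL F3.1 and OIL F3.2 averaged. A 50% filter (mean below 5.91) left out Kcna3 and Atp2b4, and it held for the genes still tested. The call became 1 with the replicate block as a fixed term (Capn1, with 431 genes in all) and 1 with the label as a random term (Atp2a3, with 728). Genes called numbered 26 with the mean of all probe sets, 10 with the OIL pair averaged and 8 to 54 without 1 array (of the OIL arrays, 8 when F3.1 was omitted, 10 for F3.2 and 19 for 204; of the TAM arrays, 24 for F3.1, 28 for 206 and 36 for 204). In the blocked fit, leaving out a label gave 87 to 436 genes and 0 to 3 of the 30, and the mean of probe sets gave 0 of the 30. Across labels, leaving out a label gave 405 to 2120 genes and 0 to 9 of the 30. For the F3 labels against 204 and 206 it gave 107 to 535 genes and 0 to 1 of the 30, and the mean of probe sets gave 0. For the difference of differences it gave 0 to 1 genes. The Ppp3r1 difference within labels, the paired form, was -2.06 with an exact sign-flip p of 0.0625, the smallest that 5 pairs can give.

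Differences near 0 changed sign. Itpr2 was -0.006 with the mean of probe sets, Camk2g 0.012 with median centring and Itpr3 -0.002 with quantile normalization. With the OIL pair averaged, Stim1 was -0.013, Itpr2 -0.064, Itpr3 -0.035, Camk2g 0.006 and Camkk2 -0.025. Without 1 array the ranges were -0.019 to 0.13 for Stim1, -0.054 to 0.084 for P2rx4, -0.086 to 0.40 for P2rx7, -0.079 to 0.15 for Itpr2, -0.036 to 0.052 for Itpr3, -0.003 to 0.12 for Atp2a2, -0.11 to 0.023 for Atp2b1, -0.053 to 0.030 for Camk2g, -0.043 to 0.13 for Camkk2 and -0.14 to 0.009 for Crtc2. The cause was not tested in any of these, beyond the fewer arrays. The limits are 5 arrays a group, unexplained labels, a pairing that is weak for F3.2, and a tamoxifen effect that cannot be told apart from the loss of CnB1.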
